A study of Mus musculus with 11 samples.

Results

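Rps13 and Rps15a encode proteins of the small ribosomal subunit, and each has processed pseudogenes, which are intronless copies of its mRNA inserted elsewhere in the genome. The 9 genes described here are these 2 parent genes and 7 of their pseudogenes, out of 22104 genes measured. They were chosen because the pseudogenes differed between genotypes in these same libraries, so every genotype difference below is a description and carries no test. RNA was sequenced from primary myoblasts, the dividing precursors of muscle fibres, grown from the tibialis anterior muscle of C57BL/6 mice of about 8 weeks (the series text gives C57b6/J). The wild-type cells and the knockout cells, which lacked the circadian transcription factor Bmal1 (genotype Bmal1-/-, gene symbol Arntl), were kept for 6 h in 21% oxygen (normoxia) or 1% oxygen (hypoxia). There were 2 libraries of wild-type normoxia and 3 each of wild-type hypoxia, knockout normoxia and knockout hypoxia. Separate mice or cultures are not stated for the libraries of a group, nor are littermate controls, and p-values therefore refer to the spread among these libraries only, part of which may be technical.

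Cytosolic ribosomes are built from ribosomal RNA and a fixed set of proteins, most of them encoded by 1 intron-containing gene in very active use. Because ribosomal protein mRNAs are abundant and were often copied back into the genome, mammals carry many ribosomal protein pseudogenes, and most are not known to make protein. A short read from a pseudogene that matches its parent letter for letter cannot be placed on one or the other by its sequence alone, so counts of a parent and its copies depend on how such reads were assigned.

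The parents lie on chromosome 7, the chromosome of Arntl. In GRCm38, the build called mm10, Rps13 (ENSMUSG00000090862) is at chr7:116331505-116334195 and Rps15a (ENSMUSG00000008683) is at chr7:118104372-118116188, both on the minus strand and 3.13 and 4.91 Mb from the annotated start of Arntl. Rps13-ps2 (ENSMUSG00000069972) is also on this chromosome, at chr7:88530446-88530898, 24.7 Mb from that start. The other listed copy of Rps13, Rps13-ps1 (ENSMUSG00000066362), is at chr8:87047689-87048226. The copies of Rps15a are spread over chromosomes 2, 4, 5 and 11. Rps15a-ps7 (ENSMUSG00000081087) is at chr2:152185291-152185682, Rps15a-ps8 (ENSMUSG00000084403) at chr4:53791070-53791456, and Rps15a-ps4 (ENSMUSG00000083757), the only member annotated as a transcribed processed pseudogene, at chr4:132219988-132220489. Rps15a-ps5 (ENSMUSG00000067058) is at chr5:105797321-105797713, within the span of Lrrc8d on the opposite strand, and Rps15a-ps6 (ENSMUSG00000083022) is at chr11:6172644-6173036, within the span of Nudcd3 on the same strand.

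The copies of Rps13 were nearly letter-perfect. Rps13-ps2 matched the parent's coding sequence over all 453 aligned bases, and Rps13-ps1 differed from it at 2 of 456 bases (99.6% identity). Both differences of Rps13-ps1 are in the stretch from base 391 to base 450 of the coding sequence. Bases are counted from 1 at the A of the start codon. This stretch is shown as a place where a read can tell Rps13-ps1 from the parent. The annotated Rps13-ps1 has 538 bases, and those outside the coding sequence were not aligned, so the stretch need not be the only such place. The other 2 copies shown, Rps13-ps4 and Rps13-ps5, are annotated copies that are also in the table but not among the 9 genes. Capitals in the parent mark the bases at which any copy shown differs, and capitals in a copy mark the bases that differ from the parent.
Rps13: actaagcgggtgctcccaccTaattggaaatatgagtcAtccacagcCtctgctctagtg
Rps13-ps2: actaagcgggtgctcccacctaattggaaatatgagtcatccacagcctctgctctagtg
Rps13-ps1: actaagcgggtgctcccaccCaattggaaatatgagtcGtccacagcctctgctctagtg
Rps13-ps4: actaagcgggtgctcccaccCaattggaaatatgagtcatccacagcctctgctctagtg
Rps13-ps5: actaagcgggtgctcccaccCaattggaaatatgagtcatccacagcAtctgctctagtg

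In the notation used here the parent's base comes first and the copy's base last. The differences of Rps13-ps1 in the coding sequence were T411C, in exon 5 of the parent, and A429G, in exon 6. T411C was not particular to Rps13-ps1: it was found in 12 of the 14 annotated copies of Rps13 that aligned there, and A429G in 8 of 14. Rps13-ps2 carried neither.

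The copies of Rps15a differed more from their parent and from one another. Over the coding sequence, Rps15a-ps5 and Rps15a-ps6 each differed at 5 bases, Rps15a-ps7 at 4 bases with 1 more base missing, Rps15a-ps4 at 9 bases and Rps15a-ps8 at 30 bases (92.2% identity). Bases 121 to 180, a stretch in which no 2 of the 6 sequences are alike, are shown with the same use of capitals.
Rps15a: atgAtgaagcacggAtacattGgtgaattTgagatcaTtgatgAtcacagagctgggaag
Rps15a-ps4: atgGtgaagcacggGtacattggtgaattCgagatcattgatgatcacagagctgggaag
Rps15a-ps5: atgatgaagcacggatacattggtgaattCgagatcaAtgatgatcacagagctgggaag
Rps15a-ps6: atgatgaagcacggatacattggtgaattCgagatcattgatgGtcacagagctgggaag
Rps15a-ps7: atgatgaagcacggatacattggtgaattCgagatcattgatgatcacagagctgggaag
Rps15a-ps8: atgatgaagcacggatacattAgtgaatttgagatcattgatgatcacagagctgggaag

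The shared change is T150C, in exon 3, present in Rps15a-ps4, Rps15a-ps5, Rps15a-ps6 and Rps15a-ps7 and in 13 of the 20 annotated copies of Rps15a, but not in Rps15a-ps8. Rps15a-ps7 and Rps15a-ps8 shared C7G and G8A near the start codon, and Rps15a-ps4 and Rps15a-ps8 shared T291G and T330C.

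**Figure D1:**
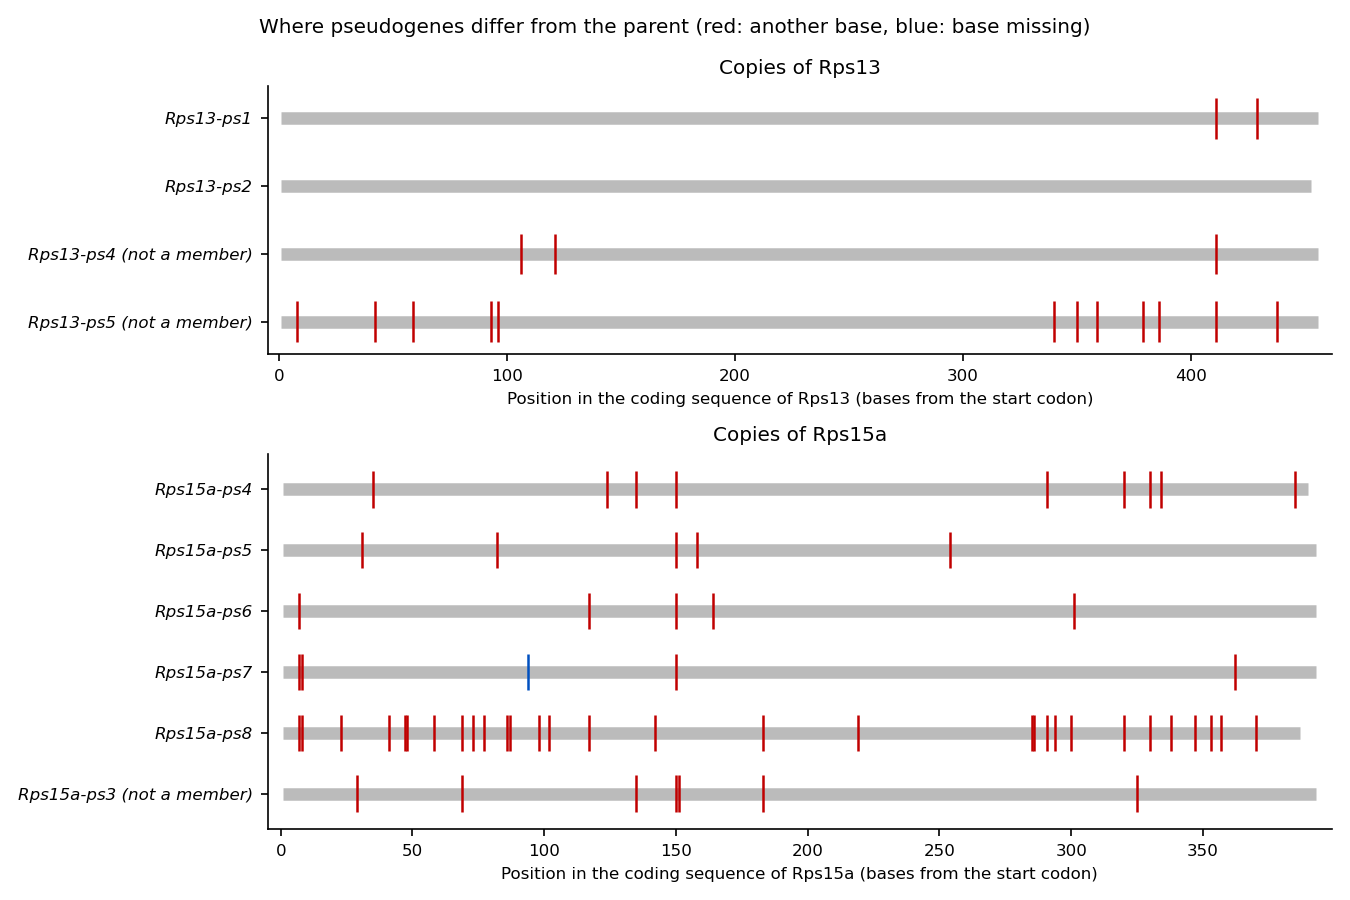
Positions at which each copy differs from its parent's coding sequence; the horizontal axis is the base position from the start codon, each grey bar is the aligned part of 1 copy, red marks are substituted bases and blue marks missing bases. Rps13-ps2 has no mark, Rps13-ps1 has 2 near the end, and Rps15a-ps8 has 30, many more than the other listed copies of Rps15a.

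The share of a copy that a read of a given length could not tell from the parent was measured with windows of 75 bases over the annotated pseudogene. All windows of Rps13-ps2 (100%) and 78.0% of those of Rps13-ps1 were found letter for letter in any annotated transcript of the parent gene. The annotation holds 8 transcripts of Rps13 and 7 of Rps15a. For the Rps15a copies the share was 47.2% in Rps15a-ps7, 36.1% in Rps15a-ps6, 27.0% in Rps15a-ps5, 25.2% in Rps15a-ps4 and 0% in Rps15a-ps8. The length of the sequenced reads was not given in the sources used here, so these windows describe the reference sequences and not the reads.

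Libraries held 18707697 to 33613328 reads, and the hypoxia libraries were all deeper than the normoxia libraries. Arntl checked the genotype labels. Its normalized count was 264 to 328 in wild-type and 98.8 to 134 in knockout libraries, and the log2 difference was -1.29 in normoxia (adjusted p = 2.24e-06) and -1.31 in hypoxia (adjusted p = 4.96e-07, limma). Which exons the knockout removes was not given, so the place of the remaining reads in the gene cannot be told. The 7 myoblast markers were expressed and summed to 28388 to 35983 per library. Leukocyte markers summed to at most 32.6, from 1 marker only, since Ptprc and Adgre1 were not among the genes in the table. Endothelial markers summed to at most 40.0, and the 3 pericyte or smooth muscle markers to 414 to 619 per library. The 5 fibroblast markers summed to 2914 to 3275 in wild-type and 1214 to 1545 in knockout libraries. The 3 Schwann cell markers, at a low level, summed to 20.5 to 26.7 in wild-type and 30.7 to 40.0 in knockout libraries. Only 1 of these 3 reached 10 in 2 libraries, and Sox10 was under 10 in every library. The fibroblast and Schwann sums moved with genotype, in opposite directions, and their part in the values below was not tested. Fewer cells of a type and less RNA per cell cannot be told apart in these samples.

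Values are the deposited normalized counts (reads over the size factor of the library). They are given in library order within wild-type normoxia, wild-type hypoxia, knockout normoxia and knockout hypoxia. Differences are on the scale of log2(value + 1), with the standard error (SE) of a model over all 4 groups.

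Rps13 was lower in the knockout. Its values were 7194 and 7036 in wild-type normoxia, 7298, 7268 and 7015 in wild-type hypoxia, 5432, 5101 and 4768 in knockout normoxia and 5334, 5068 and 5000 in knockout hypoxia. Every knockout library was below every wild-type library. The log2 difference was -0.48 (SE 0.05) in normoxia and -0.49 (SE 0.05) in hypoxia, that is 1.40-fold lower at both oxygen levels.

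Rps13-ps1 was far higher in the knockout. It had 65.3 and 74.2 in wild-type normoxia, 65.8, 102 and 104 in wild-type hypoxia, 3001, 3349 and 2975 in knockout normoxia and 3002, 2929 and 2719 in knockout hypoxia. The knockout libraries (2719 to 3349) and the wild-type libraries (65.3 to 104) were far apart. The fitted difference was 44.0-fold in normoxia (log2 5.46, SE 0.15) and 32.1-fold in hypoxia (log2 5.01, SE 0.14). In reads, 474 of the 17287 reads on this pseudogene came from wild-type libraries.

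Rps13-ps2, the copy that matches the parent throughout, had the opposite pattern. Wild-type normoxia gave 156 and 131, wild-type hypoxia gave 170, 124 and 129, and each of the 6 knockout libraries gave 0. This was 781 reads in wild-type and 0 in knockout libraries. Set against a floor of 3 reads per knockout library, it was at least 40.2-fold lower in knockout normoxia and at least 48.5-fold lower in knockout hypoxia. Its knockout zeros were recorded in libraries with 4083 to 5580 reads on Rps13, whose transcript holds the whole of the Rps13-ps2 sequence.

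Rps15a, the other parent, did not separate the genotypes. Its values were 8974 and 8693 in wild-type normoxia, 10182, 9514 and 9374 in wild-type hypoxia, 9423, 9064 and 8336 in knockout normoxia and 9108, 8863 and 9054 in knockout hypoxia. The groups overlapped in normoxia (log2 difference 0.02, SE 0.05). In hypoxia the 3 knockout values were below the 3 wild-type values, by a log2 difference of -0.10 (SE 0.05).

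Rps15a-ps7 took the most reads among the copies of Rps15a. It had 128 and 139 in wild-type normoxia, 190, 122 and 115 in wild-type hypoxia, 1440, 1404 and 1336 in knockout normoxia and 1329, 1227 and 1176 in knockout hypoxia. The genotypes were well apart, by 10.3-fold in normoxia (log2 3.37, SE 0.16) and 8.90-fold in hypoxia (log2 3.15, SE 0.14).

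Rps15a-ps6 was also higher in each knockout library. Its values were 88.9 and 95.9 in wild-type normoxia, 119, 85.7 and 60.6 in wild-type hypoxia, 495, 508 and 414 in knockout normoxia and 478, 461 and 341 in knockout hypoxia. The difference was 5.05-fold in normoxia (log2 2.34, SE 0.22) and 4.91-fold in hypoxia (log2 2.29, SE 0.20), the smallest among the 5 copies that were higher in the knockout. Nudcd3, whose span holds this pseudogene on the same strand, lay between 1088 and 1251 in all libraries, with a log2 difference of -0.08 (adjusted p = 0.505, limma) in normoxia and -0.05 (adjusted p = 0.689) in hypoxia.

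Rps15a-ps4 had only 2 to 11 reads in a wild-type library and 77 to 127 in a knockout library. It had 7.50 and 2.28 in wild-type normoxia, 8.58, 7.03 and 8.55 in wild-type hypoxia, 95.6, 114 and 106 in knockout normoxia and 123, 95.4 and 86.1 in knockout hypoxia. The fitted difference was 20.1-fold in normoxia (log2 4.33, SE 0.33) and 11.2-fold in hypoxia (log2 3.49, SE 0.30). Only 39 of its 621 reads were in wild-type libraries, and the normoxia value rests on 9 wild-type reads: it was 5.01 on the log2 scale without wild-type normoxia replicate 1 and 3.64 without replicate 2.

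Rps15a-ps8, the most diverged copy, was all but absent in wild-type. It had 0 and 1.14 in wild-type normoxia, 0 in the 3 wild-type hypoxia libraries, 165, 185 and 221 in knockout normoxia and 156, 175 and 177 in knockout hypoxia. This was 1 read in wild-type and 1012 reads in knockout libraries. With the reads of a group pooled and divided by its summed size factors, the ratio in normoxia was 347, with a 95% counting interval of 62.0 to 13745 because of the single wild-type read. In hypoxia it was at least 69.7-fold higher, again with a floor of 3 reads per wild-type library. None of its windows of 75 bases is found in Rps15a.

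Rps15a-ps5 was the exception among the copies. It had 7.50 and 7.99 in wild-type normoxia, 11.4, 8.43 and 6.22 in wild-type hypoxia, 6.21, 13.7 and 7.60 in knockout normoxia and 10.7, 12.7 and 9.22 in knockout hypoxia. These are 5 to 14 reads per library, and the groups overlapped at both oxygen levels (log2 difference 0.15, SE 0.42, in normoxia and 0.32, SE 0.37, in hypoxia). Lrrc8d, on the opposite strand of this site, had values of 306 to 456. Whether the counting used the strand was not given, so reads of Rps15a-ps5 and Lrrc8d cannot be told apart here.

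**Figure D2:**
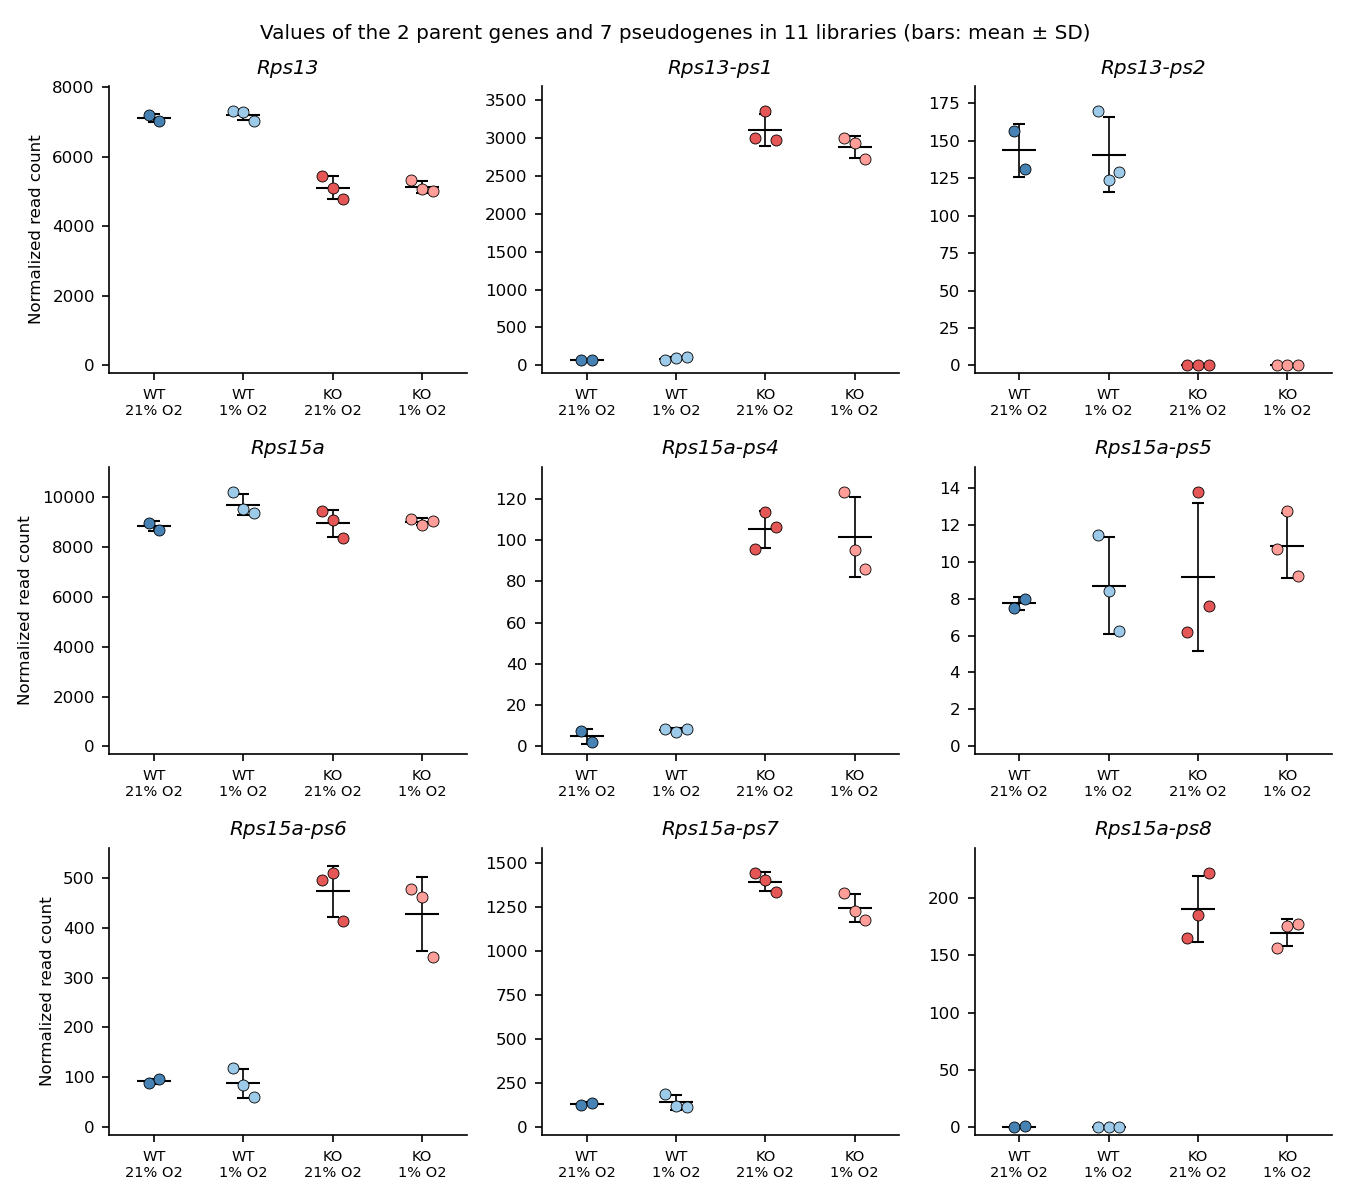
Normalized read count (vertical axis, a separate linear scale in each panel) of the 2 parents and 7 pseudogenes in each of the 11 libraries; points are libraries, horizontal bars are group means and error bars are SD (n = 2 or 3). Rps13-ps1, Rps15a-ps4, Rps15a-ps6, Rps15a-ps7 and Rps15a-ps8 lie higher in each of the 6 knockout (KO) libraries, Rps13 and Rps13-ps2 lie lower, and Rps15a and Rps15a-ps5 overlap.

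All 9 genes passed the filter on low values (at least 10 in at least 2 libraries), but 3 did so through 1 genotype only: Rps13-ps2 through the 5 wild-type libraries, and Rps15a-ps4 and Rps15a-ps8 through the 6 knockout libraries. Across both oxygen levels, 5 of the 9 were higher in every knockout library than in every wild-type library, where 4.05% of the 14729 tested genes were, and 2 were lower, where 6.28% were. Of all tested genes, 9.09% were called between genotypes in normoxia and 8.95% in hypoxia (limma, adjusted p under 0.05). Since the members were chosen on this contrast, nothing is read from their counts against these shares. On the fitted scale, 21 of the 14729 genes differed by at least 2 log2 units at both oxygen levels without overlap. These 21 include the 6 pseudogenes other than Rps15a-ps5, which were chosen on this contrast, so nothing is read from that count either. For Rps13-ps2 and Rps15a-ps8 the fit holds a group with 0 reads or 1 read, and no fold is given from it.

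Per kilobase of annotated transcript, each parent had a higher mean than each of its copies in both genotypes, with Rps13-ps1 in the knockout the nearest. The mean level of Rps13 was 12160 per kb in wild-type and 8688 per kb in knockout libraries. That of Rps13-ps1 was 153 and 5569 per kb. For Rps15a it was 14605 and 14023 per kb, and for Rps15a-ps7, its highest copy, 354 and 3364 per kb. Among the other copies in the knockout the order was Rps15a-ps6 (1144 per kb), Rps15a-ps8 (465 per kb), Rps15a-ps4 (264 per kb) and Rps15a-ps5 (25.5 per kb).

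Summing a family shows how much of its signal sat on pseudogenes. In the Rps13 family, the parent with Rps13-ps1 and Rps13-ps2, the pseudogenes held 2.84% to 3.22% of the reads in the wild-type libraries and 35.2% to 39.6% in the knockout libraries. The 95% Wilson interval, which covers counting error only, was 2.46% to 3.28% for the lowest of these shares and 38.5% to 40.8% for the highest. No wild-type share came near a knockout share.

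The whole Rps13 family summed to 7416 and 7242 in wild-type normoxia, 7533, 7494 and 7249 in wild-type hypoxia, 8433, 8450 and 7744 in knockout normoxia and 8335, 7997 and 7719 in knockout hypoxia. Every knockout sum was above every wild-type sum, the reverse of the parent alone. The mean sum was 1.12 times the wild-type mean in normoxia and 1.08 times in hypoxia. In normoxia the parent's mean was lower by 2015 in the knockout while the pseudogenes' summed mean was higher by 2895. In hypoxia these differences were 2060 and 2652. The family sum was therefore closer between genotypes than the parent was or its copies were.

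In the Rps15a family the pseudogenes' share was also higher in the knockout, while the parent was at a similar level. The pseudogenes held 1.99% to 3.13% of its reads in the wild-type and 16.5% to 20.0% in the knockout libraries. The family summed to 9206 and 8939 in wild-type normoxia, 10511, 9737 and 9564 in wild-type hypoxia, 11624, 11289 and 10421 in knockout normoxia and 11205, 10835 and 10844 in knockout hypoxia. The mean sum in the knockout was 1.22 times the wild-type mean in normoxia and 1.10 times in hypoxia, without overlap within either oxygen level. In normoxia the parent's mean was 108 higher in the knockout and the pseudogenes' sum was 1931 higher. In hypoxia the parent's mean was 681 lower and the pseudogenes' sum was 1705 higher.

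**Figure D3:**
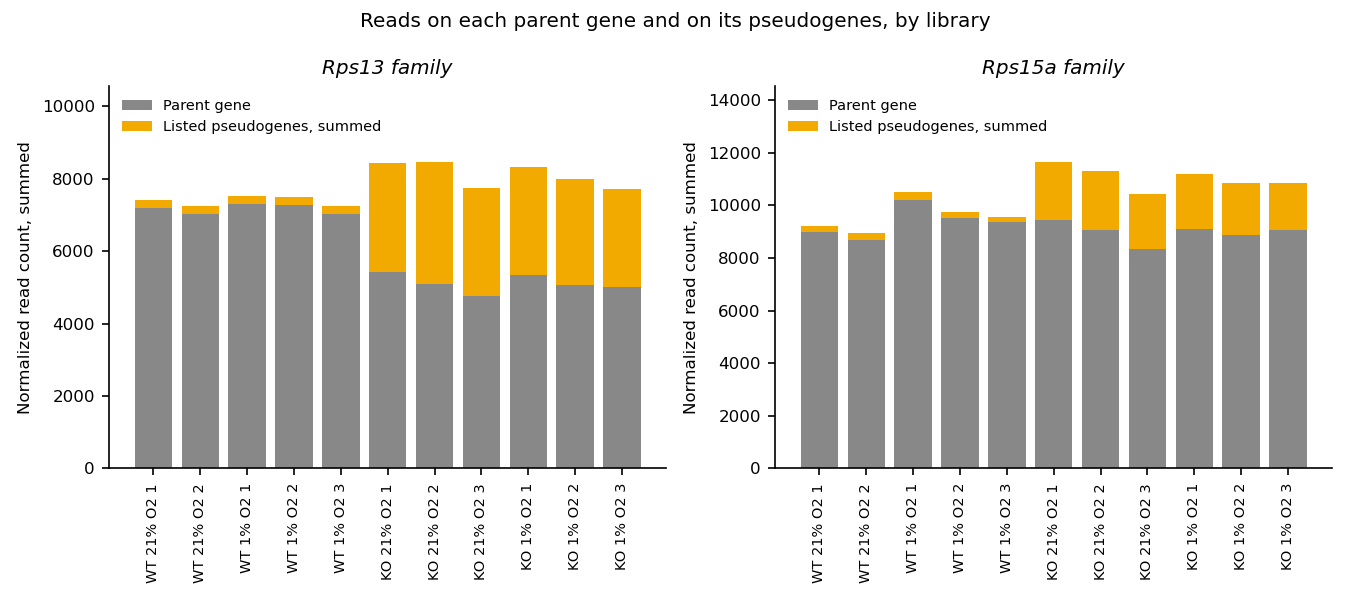
Summed normalized read counts of each family in the 11 libraries (vertical axis from 0); grey is the parent gene and yellow the listed pseudogenes, and the numbers after the group names are replicates. Pseudogenes hold at most 3.22% of the reads of a family in the wild-type (WT) libraries, and 35.2% to 39.6% (Rps13) or 16.5% to 20.0% (Rps15a) in the knockout (KO) libraries.

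The annotation holds further copies of both parents. By a local BLAST match of at least 80% identity over at least 50% of the coding sequence, 14 copies of Rps13 and 20 of Rps15a were found, of which 5 and 11 are in the table. Over the whole aligned stretch, gaps counted, 2 of them came to less than that, Gm37568 (73.5%) and Gm28552 (79.7%). The 3 copies of Rps13 in the table that are no members, Gm15483, Rps13-ps4 and Rps13-ps5, had 11, 26 and 4 reads over all 11 libraries. The 6 such copies of Rps15a were Gm37568 with 58 reads, Rps15a-ps3 with 16, Gm29454 with 14, Gm13407 with 10, Gm26983 with 9 and Gm16218 with 6. None passed the filter on low values. Summed over the wild-type libraries, the reads of the 5 Rps13 copies followed their number of coding differences from the parent. They were 781 for Rps13-ps2 (no difference), 474 for Rps13-ps1 (2), 11 for Rps13-ps4 (3), 6 for Gm15483 (5) and 3 for Rps13-ps5 (12). Over the knockout libraries the reads were 0, 16813, 15, 5 and 1 in the same sequence, so Rps13-ps2 left the order there. The Rps15a copies kept no such order in the wild-type libraries. With 5 differences each, Rps15a-ps7, Rps15a-ps6 and Rps15a-ps5 had 763, 492 and 46 reads. Rps15a-ps3 (7 differences) had 5 reads and Rps15a-ps4 (9) had 39. Rps15a-ps8 (30) had 1 read and Gm37568 (95) had 33. How read assignment bears on these counts was not tested.

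Hypoxia was the comparison that did not choose these genes. In wild-type cells 0 of the 8 members with more than 1 read there passed an adjusted p under 0.05 (limma, Benjamini-Hochberg over all tested genes), where 2.17% of all tested genes did. Rps15a-ps8, with 1 wild-type read, could not be compared there. An unadjusted p under 0.05 was found for 3 members, for 1 with edgeR and for 2 with DESeq2, and neither of those tools called any. In knockout cells 0 of the 8 with reads there were called, where 4.09% of all genes were, and 0 had an unadjusted p under 0.05 with limma, edgeR or DESeq2. Rps13-ps2, with 0 knockout reads, could not be compared there.

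The 2 parents gave narrow intervals in hypoxia. Rps13 differed by log2 0.02 (95% interval -0.10 to 0.13, adjusted p = 0.935, limma) in wild-type and 0.01 (-0.09 to 0.11, adjusted p = 0.942) in knockout cells. For Rps15a it was 0.13 (0.02 to 0.25, unadjusted p = 0.0242, adjusted p = 0.277, limma) in wild-type, where the 3 hypoxia values were above the 2 normoxia values, and 0.01 (-0.09 to 0.11, adjusted p = 0.93) in knockout cells.

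Rps13-ps1 and Rps15a-ps4 were the copies with an unadjusted p under 0.05. Rps13-ps1 differed by 0.35 (0.02 to 0.67, unadjusted p = 0.0406, adjusted p = 0.337, limma) in wild-type hypoxia, with overlapping groups, and by -0.11 (-0.40 to 0.19, adjusted p = 0.742) in the knockout. Without wild-type hypoxia replicate 1, the lowest of its group, the wild-type value was 0.56 with an adjusted p of 0.00385 (limma). Rps15a-ps4 differed by 0.77 (0.06 to 1.49, unadjusted p = 0.0361, adjusted p = 0.32, limma) in wild-type cells, which is 1.46 with an adjusted p of 0.0243 without wild-type normoxia replicate 1. These wild-type values rest on 2 to 11 reads a library, and the knockout value, on 77 to 127 reads, was -0.06 (-0.70 to 0.58, adjusted p = 0.946).

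For the remaining copies the 95% interval of the hypoxia difference included 0. Rps15a-ps7 had 0.05 (adjusted p = 0.928, limma) in wild-type and -0.16 (-0.47 to 0.14, adjusted p = 0.603) in knockout cells, where its 3 hypoxia values were below its 3 normoxia values. Rps15a-ps6 had -0.11 (adjusted p = 0.883, limma) and -0.16 (adjusted p = 0.742), and Rps15a-ps5 had 0.11 (adjusted p = 0.941) and 0.28 (adjusted p = 0.757). Rps13-ps2 could be compared in wild-type cells alone, at -0.04 (-0.81 to 0.73, adjusted p = 0.977, limma). Rps15a-ps8 could be compared in knockout cells alone, at -0.16 (-0.79 to 0.47, adjusted p = 0.838, limma). For both genes the spread behind the interval was fitted over all 4 groups, including the libraries with almost no reads. It is therefore not the spread of the compared libraries alone.

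How far the hypoxia effect differed between genotypes is made of the contrasts that chose the genes, so it is given without a test. It was largest in size for Rps15a-ps4, at -0.84 (SE 0.44), and Rps13-ps1, at -0.45 (SE 0.20). For the other 5 genes with reads in all groups it lay between -0.22 and 0.17.

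**Figure D4:**
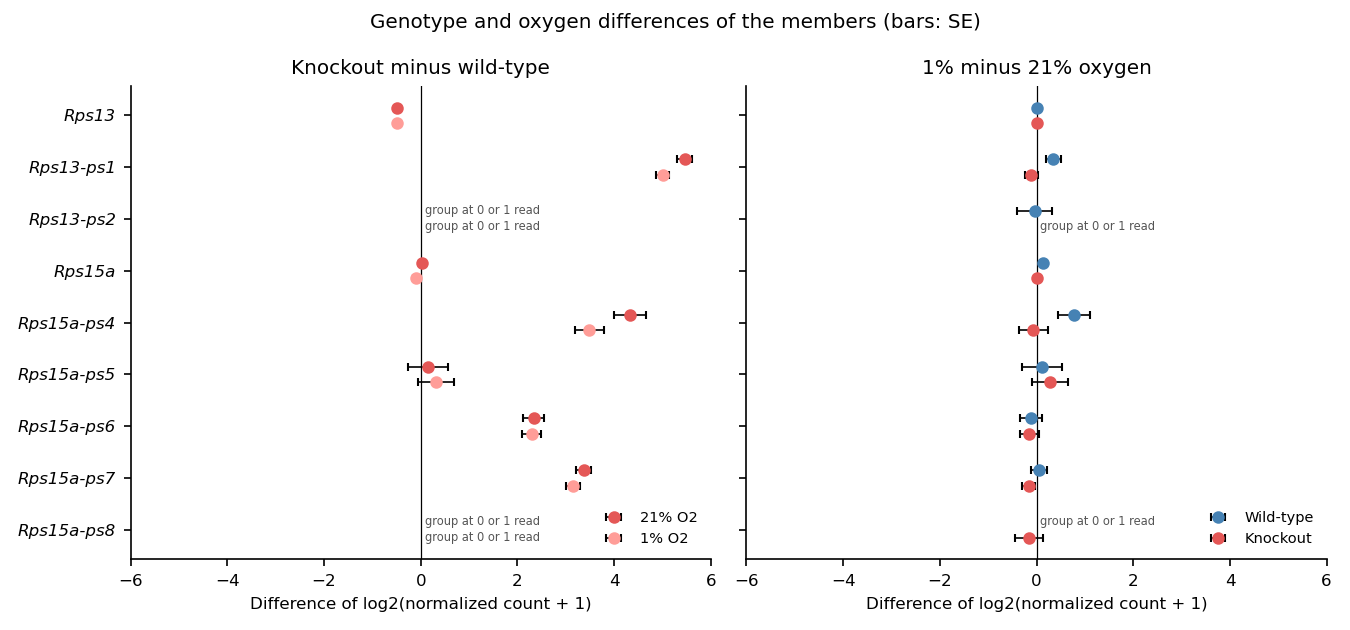
Difference of log2(normalized count + 1) for each member (horizontal axis) between genotypes (left, at 21% and 1% oxygen) and between oxygen levels (right, in wild-type and knockout cells); points are model estimates and bars are SE, and no point is drawn where a group had 0 reads or 1 read. Genotype differences reach 5.46 in Rps13-ps1, while oxygen differences lie between -0.16 and 0.77.

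Other ribosomal protein genes show whether the parents moved with their class. In the list of 78 other cytosolic ribosomal protein genes, 0 were called in wild-type hypoxia (limma; 6 had an unadjusted p under 0.05, edgeR called 0 and DESeq2 called 1). Among those with the smallest adjusted p were Rps9 of the small subunit (log2 0.12, adjusted p = 0.232) and Rplp2, a stalk protein of the large subunit (0.14, adjusted p = 0.233). In knockout hypoxia 1 of 78 fell, Rpl6 of the large subunit, by 0.17 on the log2 scale (SE 0.04, adjusted p = 0.0191, limma). Leaving out any of 4 libraries (knockout normoxia replicate 1 or 2, knockout hypoxia replicate 2 or 3) ended that call. Rps16 had 0.24 (adjusted p = 0.0902, limma) and Rps14 -0.13 (adjusted p = 0.183). The median of the list was 0.02 in wild-type and -0.03 in knockout hypoxia, beside -0.0025 and -0.0052 over all tested genes.

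Between genotypes the 78 genes had a median log2 difference of 0.06 in normoxia and 0.01 in hypoxia, and 0 were called at either oxygen level. They ranged from -0.10 to 0.19 in normoxia and from -0.07 to 0.09 in hypoxia. Rps13, at -0.48 and -0.49, was outside both ranges. Rps15a, at 0.02 and -0.10, was inside the first and just under the second.

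Of 125 other ribosomal protein pseudogenes in the table, 54 passed the filter, and 0 of the 54 separated the genotypes without overlap. Over all tested genes, 4.05% were higher and 6.28% were lower in every knockout library than in every wild-type library. The median genotype difference of the 54 was 0.06 in normoxia and 0.04 in hypoxia. Some of the 54 may repeat the same measurement. Rpl35a-ps2, Rpl35a-ps3, Rpl35a-ps4 and Rpl35a-ps6 had identical differences (0.231632 in normoxia and -0.184817 in hypoxia). Rps19-ps1 and Rps19-ps2 also shared theirs (-0.106252 in normoxia and 0.485379 in hypoxia). The single call was Rpl9-ps6, which rose by 0.32 in knockout normoxia (SE 0.08, adjusted p = 0.0286, limma). Rpl30-ps9, named here after its values were seen, had the largest fitted value, 2.69 in hypoxia (SE 1.36, adjusted p = 0.287), with wild-type libraries from 0.703 to 355 and knockout libraries from 244 to 438.

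**Figure D5:**
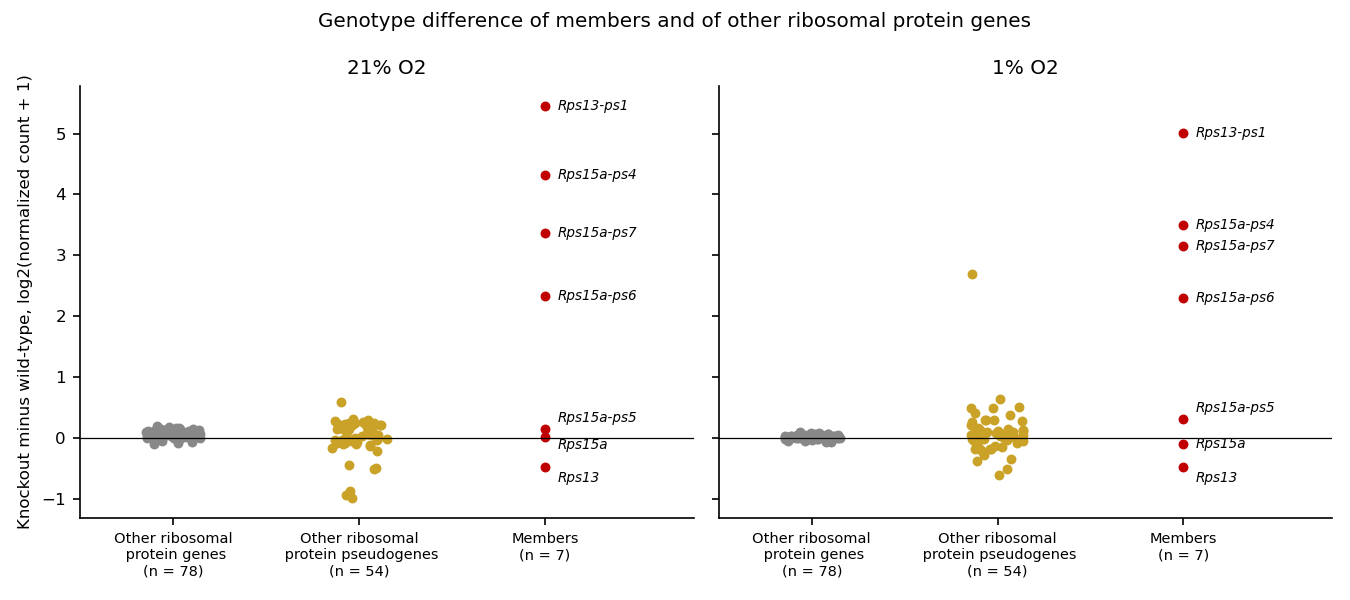
Knockout minus wild-type difference of log2(normalized count + 1) (vertical axis) at 21% oxygen (left) and 1% oxygen (right); each point is 1 gene of the 78 other ribosomal protein genes, the 54 other ribosomal protein pseudogenes or the 7 members with reads in all groups, which are named. The 78 genes lie between -0.10 and 0.19, and 4 pseudogenes of Rps13 and Rps15a lie at 2.29 or above at both oxygen levels.

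Genes near Arntl on chromosome 7 were counted as a further comparison, since both parents lie there. Of 57 tested protein-coding genes that start within 6 Mb of the start of Arntl, 17.5% were called between genotypes in normoxia and 15.8% in hypoxia. Among all tested genes these shares were 9.09% and 8.95%. All knockout libraries were above all wild-type libraries for 8.77% of the 57 and below them for 12.3%. The shares over all tested genes were 4.05% and 6.28%. A difference of at least 2 log2 units at both oxygen levels without overlap was found for 1 of the 57, Plekha7.

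The genes most like each member over the 11 libraries were ranked by Pearson r of log2(value + 1), as a description. With libraries of 2 genotypes, r is high for any gene that separates the genotypes the same way. Rps13 was most like Pik3r1 (r = 0.988), a regulatory subunit of phosphoinositide 3-kinase, C1ra (0.987), a complement protease, and Slc39a1 (0.984), a zinc transporter. Rps13-ps2 was most like Nr1d2 (0.998), a nuclear receptor of the circadian clock, Lrrc32 (0.998) and Cxcl14 (0.997), a chemokine.

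Cry1, a repressor of the circadian clock, was the gene most like Rps13-ps1 (r = 0.991, followed by Col19a1 with 0.988 and Vash2 with 0.988) and was second for Rps15a-ps8 (0.993, after Mum1l1 with 0.993 and before Col19a1 with 0.991). The collagen gene Col19a1 was among the 3 nearest of 4 copies, since it was also so for Rps15a-ps7 (0.993, beside Anxa5 with 0.993 and Tnnt1 with 0.990) and Rps15a-ps6 (0.982, after Dclk1 with 0.986 and 1190002N15Rik with 0.983). For Rps15a-ps4 the nearest were Asb4 (0.988), Ptbp2 (0.986) and Anxa5 (0.983). The members that overlapped between genotypes had lower values. Rps15a was nearest to Sdcbp (0.939), Ccpg1 (0.935) and Aifm2 (0.917), and Rps15a-ps5 to Hs3st3a1 (0.890), Palm3 (0.888) and Mat2b (0.876). Ranking by Spearman rho kept 0 or 1 of the 3 genes of each member.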

How the data were processed

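Total RNA of the 11 libraries was sequenced after preparation with a stranded kit, per the labels' protocols. The authors deposited 1 table of signal, read counts per Ensembl gene divided by 1 size factor per library, with 0 columns left unused here. The submitters' processing notes name bcl2fastq, STAR, Picard, HTSeq, RSEM, DESeq2 and the mm10 build. The annotation, the strand setting and the handling of reads that match several genes were not given in the sources used here. Whole reads were recovered for 100% of values within 0.01 read. Libraries of a group differed beyond counting error (chi-square per degree of freedom 4.59 to 22.6), so none was a duplicate.

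The 14729 genes that reached 10 in 2 or more libraries were fitted on log2(value + 1), a scale that understates changes of low genes, with limma 3.58.1 (R 4.3.3; 4 group means, variance trend on mean, residual degrees of freedom 7, prior 6.35). P-values were two-sided and Benjamini-Hochberg adjusted over all tested genes, and calls are at an adjusted p under 0.05. Counts were also tested with edgeR 4.0.16 and DESeq2 1.42.0, and other pseudocounts, filters, single comparisons and each library left out were tried. In the hypoxia comparisons limma called 320 genes in wild-type and 602 in knockout, edgeR on the recovered reads 318 and 571, and DESeq2 392 and 666. The fit was tested on simulated data. Copies were found with BLAST 2.17.0 and aligned with Biopython 1.88 in GENCODE M21, the source of positions and sequences.

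The members and lists were chosen with earlier results of these data known. Named by rule were the members, Arntl, overlapping genes and other copies in the table, the 3 genes most like each member, and the 3 other ribosomal protein genes with the smallest adjusted p in each hypoxia comparison. Some results of the list of other ribosomal protein genes are not reported here. Snord14a, within Rps13, was not analysed here.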

Additional observations from a re-analysis of the deposited data

How the results depend on the processing

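Members called in wild-type hypoxia numbered 0 with pseudocounts of 0.5 and 5, no filter, a filter of 50, edgeR, DESeq2 and a fit of the 2 groups alone, and 0 to 1 with each library left out. Other ribosomal protein genes called numbered 1 with DESeq2 and 0 to 1 with a library left out in wild-type hypoxia, and 2 with DESeq2 (Rpl6 and Rps16) and 0 to 1 with a library left out in knockout hypoxia. Leaving out 1 library turned the sign of some hypoxia differences near 0, none of them called. The log2 value then ranged from -0.00035 to 0.0337 for Rps13 in wild-type and from -0.0367 to 0.0573 in knockout cells, from -0.180 to 0.0858 for Rps13-ps2 in wild-type, from -0.0369 to 0.0514 for Rps15a in knockout, from -0.210 to 0.0462 for Rps15a-ps4 in knockout, from -0.0828 to 0.310 for Rps15a-ps5, from -0.352 to 0.130 for Rps15a-ps6 and from -0.172 to 0.186 for Rps15a-ps7, the last 3 in wild-type. The 150 recomputed genotype differences of members at 0.4 log2 units or more kept their sign. With a pseudocount of 5, Rps15a-ps4 had a genotype difference of 3.53 in normoxia and 3.02 in hypoxia. Family sums and shares moved by less than the replicate spread with TMM scaling, with other copies added and with each library left out. The share of windows found in the parent depended on their length: with 50 and 100 bases it was 82.8% and 76.8% for Rps13-ps1, 60.1% and 38.2% for Rps15a-ps7, 55.2% and 15.99% for Rps15a-ps6, 45.1% and 13.6% for Rps15a-ps5, 38.2% and 13.99% for Rps15a-ps4, and 4.73% and 0% for Rps15a-ps8. No paired analysis was possible because the labels give no replicate numbers.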
